A study of Arabidopsis thaliana with 12 samples.

Results

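The comparison described here is that of geralt with wild type in whole Arabidopsis thaliana seedlings at 12 days of age, with 3 libraries of polyadenylated RNA in each group. The libraries were chosen by the titles the submitters gave, and make up 6 of the 12 libraries of the series; the other 6 are the same 2 genotypes at 5 days. The geralt seedlings carry the T-DNA insertion SALK_116579, a line that the labels name both phr2 and geralt, and the wild type is Col (N6000). Both genotypes were raised in vitro at 23 °C on B5 medium that held 1% sucrose. Days had 10 h of light and nights lasted 14 h, and plants were taken about 4 h into the light. The mutant group is thus 1 insertion line, and the design text calls the replicates biological. How many plants a library pools and whether replicates grew apart is not stated, so p-values measure the spread between these libraries. Libraries are called by the numbers in their titles: 5, 9 and 11 for geralt and 6, 10 and 12 for wild type. Lists of 3 values per genotype follow this order. CPM are a gene's reads scaled to the library's effective size, which is its total gene reads times its TMM factor; the factors were 1.09 to 1.32 in geralt and 0.743 to 0.973 in wild type. The study is about how chloroplasts form and make chlorophyll, as its title puts it.

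Most chloroplast proteins are coded in the nucleus and imported, while a small plastid genome codes for core subunits of the photosystems, Rubisco and the plastid's own gene expression machinery. Plastids and mitochondria both signal back to the nucleus about their state. In Arabidopsis the transcription factors NAC013 and NAC017 carry such a signal from mitochondria and bind a sequence known as the mitochondrial dysfunction motif, which lies in promoters of alternative oxidase and other stress genes. PHR2 codes for a member of the photolyase and cryptochrome family. Despite its name it is unrelated to PHR1, the transcription factor that turns on phosphate starvation genes through the site GNATATNC.

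The sequences below are shown because 3 of the 5 genes that rose in geralt hold the mitochondrial dysfunction motif just before their start, as do genes that passed when the 5-day libraries shared the fit. Each is the 150 bases before the gene's start, read 5′ to 3′ on the gene's strand from the RefSeq assembly TAIR10.1, with the motif, on either strand, in capitals.
AT1G17960 (chr1:6183807-6183956, minus strand): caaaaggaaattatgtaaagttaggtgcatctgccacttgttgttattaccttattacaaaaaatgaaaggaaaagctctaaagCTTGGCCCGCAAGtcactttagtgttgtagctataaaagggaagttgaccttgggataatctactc
AT5G53230 (chr5:21598698-21598847, plus strand): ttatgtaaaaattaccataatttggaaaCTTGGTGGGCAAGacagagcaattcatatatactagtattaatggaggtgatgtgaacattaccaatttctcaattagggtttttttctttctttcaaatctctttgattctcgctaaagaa
AT5G53240 (chr5:21601331-21601480, plus strand): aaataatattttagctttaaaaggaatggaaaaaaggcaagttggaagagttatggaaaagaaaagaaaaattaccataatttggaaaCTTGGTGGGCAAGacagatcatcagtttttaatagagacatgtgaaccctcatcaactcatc
UPOX (chr2:9254228-9254377, plus strand): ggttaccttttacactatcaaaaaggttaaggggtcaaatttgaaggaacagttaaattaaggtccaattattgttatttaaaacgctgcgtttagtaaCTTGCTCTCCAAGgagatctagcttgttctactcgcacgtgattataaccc
NAC044 (chr3:228925-229074, plus strand): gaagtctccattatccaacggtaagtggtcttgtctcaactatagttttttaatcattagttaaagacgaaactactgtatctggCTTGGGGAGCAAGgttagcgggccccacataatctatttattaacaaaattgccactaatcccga
AT2G18193 (chr2:7919346-7919495, minus strand): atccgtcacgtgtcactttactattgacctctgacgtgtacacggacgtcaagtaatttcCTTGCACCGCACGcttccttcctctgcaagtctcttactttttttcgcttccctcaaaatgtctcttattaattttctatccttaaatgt
The adjacent genes AT5G53230 and AT5G53240 share a run of 40 bases in this stretch that includes the motif, so they are not independent cases. In the window from 250 bases before to 50 bases after the start, 10 of the 84 chromosome genes that were higher in the 12-library fit held the motif (11.9%), against 1 of the 76 that were lower (1.32%). Of all 20307 tested chromosome genes 232 did (1.14%). In the part before the start alone the counts were 7 of 84 (8.33%), 1 of 76 (1.32%) and 192 of 20307 (0.945%). Both AT5G53230 and AT5G53240 are among the 10, as is UPOX. UPOX belongs to a list of alternative respiration and mitochondrial signalling genes in which 6 of 12 windows held the motif (50%). The share among the higher genes was thus in part given. The motif was chosen after the genes were seen, and a match describes the sequence and does not show that a factor binds there.

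Of 20446 genes with enough reads, 7 passed edgeR's quasi-likelihood test between the 6 libraries at an adjusted p of 0.05. They were 5 genes that rose in geralt (0.0245% of genes tested) and 2 that fell (0.00978%). The 2 that fell were AT4G13575, which RefSeq lists as an uncharacterized protein, and PHR2, after which the line is named. The 5 that rose were AT5G53230 and AT5G53240, a pair of neighbouring genes of a domain family of unknown function (DUF295), AT4G29200, a beta-galactosidase related protein, AT5G60250, a RING-type zinc finger protein, and AT1G17960, a threonyl-tRNA synthetase. All reads of these 7 genes were counted as unique.

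PHR2 (chr2:19521774-19524095, plus strand) had 29.2, 23.4 and 30.1 CPM in geralt and 187, 198 and 191 CPM in wild type. The 6 values lie in 2 narrow groups with no overlap, 27.5 ± 3.62 CPM in geralt and 192 ± 5.6 CPM in wild type (SD, n = 3 each), and the fall was -2.8 on the log2 scale (SE 0.24, edgeR adjusted p = 0.0114). Summed reads, scaled to summed effective sizes, were 6.89-fold lower in geralt, with a 95% counting interval of 6.67 to 7.11; such intervals cover counting error only. A sum over the whole gene does not tell which stretch of it the remaining geralt reads cover. With 1 library left out the same direction stood in each case, but the call ended without geralt library 5 (edgeR adjusted p = 0.066), 9 (0.152) or 11 (0.10), and without wild-type library 10 (0.0683) or 12 (0.0572). It also ended without libraries 5 and 12 together (0.0546).

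AT4G13575 (chr4:7890249-7893761, minus strand) was the gene with the largest fall. It had 1, 2 and 8 reads in geralt and 1624, 1535 and 3017 reads in wild type, or 0.0172, 0.0425 and 0.15 CPM in geralt and 27.8, 37.9 and 33.9 CPM in wild type. It was close to silent in each geralt library and moderately expressed in each wild-type library, and summed reads on the same scale were 473-fold lower in geralt (95% counting interval 264 to 948; log2 fold change -8.85, SE 0.60; edgeR adjusted p = 0.00702). It passed under all 15 alternatives to the 6-library test, the only 1 of the 7 genes to do so.

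AT5G53230 (chr5:21598848-21600008, plus strand) had 762, 384 and 477 reads in geralt and 8, 1 and 6 reads in wild type, a 128-fold difference of summed reads after the same scaling (95% counting interval 77.6 to 230.0). Its neighbour AT5G53240 (chr5:21601481-21602739, plus strand) had 988, 567 and 729 reads in geralt and 11, 5 and 3 reads in wild type, a 143-fold difference (95% counting interval 91.2 to 237). Both genes were nearly silent in wild type and on in every geralt library. Their log2 fold changes were 6.96 (SE 0.56) and 7.00 (SE 0.59), each at an edgeR adjusted p of 0.0114. AT4G29200 (chr4:14398054-14400198, minus strand) showed the same pattern, with 269, 327 and 348 reads in geralt and 3, 3 and 3 reads in wild type, a 125-fold difference (95% counting interval 65.3 to 273; log2 fold change 6.86, SE 0.49, edgeR adjusted p = 0.00702).

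AT5G60250 and AT1G17960 were expressed in both genotypes. AT5G60250 (chr5:24252138-24255900, plus strand) had 67.2, 32.5 and 32.8 CPM in geralt and 2.01, 2.72 and 2.52 CPM in wild type (log2 fold change 4.19, SE 0.38, edgeR adjusted p = 0.0141). AT1G17960 (chr1:6180865-6183806, minus strand) had 27.7, 13.5 and 12.1 CPM in geralt and 0.994, 0.815 and 1.23 CPM in wild type (log2 fold change 4.12, SE 0.42, edgeR adjusted p = 0.0311). In both genes library 5 was the highest of the geralt libraries. AT5G60250 overlaps AT5G60260 on the opposite strand, and reads of such a pair may not be told apart here. Leaving out geralt library 11 ended the call of all 5 genes that rose, at edgeR adjusted p from 0.0563 to 0.064. Without wild-type library 12 the calls of AT5G60250 (0.128), AT1G17960 (0.147) and AT5G53230 (0.0711) ended. Those of AT5G60250 and AT1G17960 also ended without wild-type library 6 (0.0966 and 0.161) and 10 (0.0963 and 0.147). That of AT5G53240 ended without wild-type library 10 (0.0683), and that of AT1G17960 without geralt library 9 (0.094). Leaving out geralt library 5, or libraries 5 and 12 together, ended none of the 5. The deposited TPM are scaled per gene length and do not use the TMM factors. On that scale AT5G60250 had 26.8 TPM in geralt and 0.979 TPM in wild type on average. PHR2 had 29.1 TPM in geralt and 144 TPM in wild type on average. Ratios between the genotypes are therefore not the same in TPM as in CPM.

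**Figure D1:**
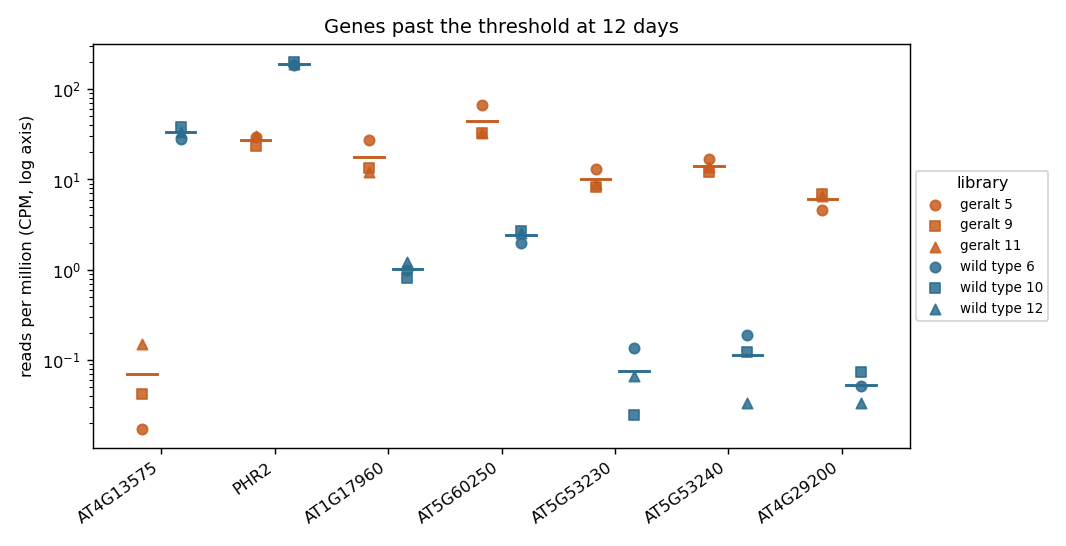
CPM (log axis) of the 7 genes past the threshold, in the 3 geralt libraries (orange, left) and the 3 wild-type libraries (blue, right), with a bar at each mean. The genotypes do not overlap in any of the 7 genes, and PHR2 stands at 23.4 to 30.1 CPM in geralt and 187 to 198 CPM in wild type.

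The 5 genes that rose were also above wild type at 5 days in a fit to all 12 libraries, with log2 fold changes of 2.23 to 3.16 that did not pass (edgeR adjusted p from 0.0896 to 0.235). AT4G13575 and PHR2 passed at 5 days as well, at -9.84 (SE 0.71, edgeR adjusted p = 0.000128) and -2.68 (SE 0.37, 0.0128). A test of the difference between the 2 ages called 0 of 21122 genes by edgeR, with 2185 at an unadjusted p under 0.05. It called 70 by DESeq2, and 2 by edgeR without wild-type library 6. Among the 7 genes the smallest unadjusted p of this difference by edgeR was 0.0087, for AT5G53240 (adjusted p = 0.438). A larger effect at 12 days was thus not shown by edgeR for any of them.

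Geralt library 5 and wild-type library 12 each stood apart from the other libraries of their group. Total gene reads ran from 43.1 to 49 M in geralt and from 54.5 to 91.6 M in wild type. In a scaling plot of the libraries, library 5 lay at 2.89 on the first axis and the other geralt libraries at 0.74 and 0.44, against -1.85 to -0.68 in wild type. On the second axis library 12 lay at 2.38. In library 5, 449 genes were at least 4-fold below both other geralt libraries, against 32 and 54 in libraries 9 and 11. Among them were 8 of 21 antenna genes and 9 of 32 nuclear genes of the photosystems and electron transport. In library 12, 794 genes were at least 4-fold below both other wild-type libraries, against 80 and 142 in libraries 6 and 10, and they held 36 of 73 plastid genes, 32 of 65 mitochondrial genes and 6 of 12 root markers. Reads in introns made up 1.4%, 1.31% and 1.0% in geralt and 0.857%, 0.834% and 0.901% in wild type (exact permutation p = 0.1, the smallest that 3 against 3 allow). The share of the 20 genes with most reads was 7.91% to 14.5% in geralt and 18.9% to 24.7% in wild type, again without overlap (exact permutation p = 0.1).

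**Figure D2:**
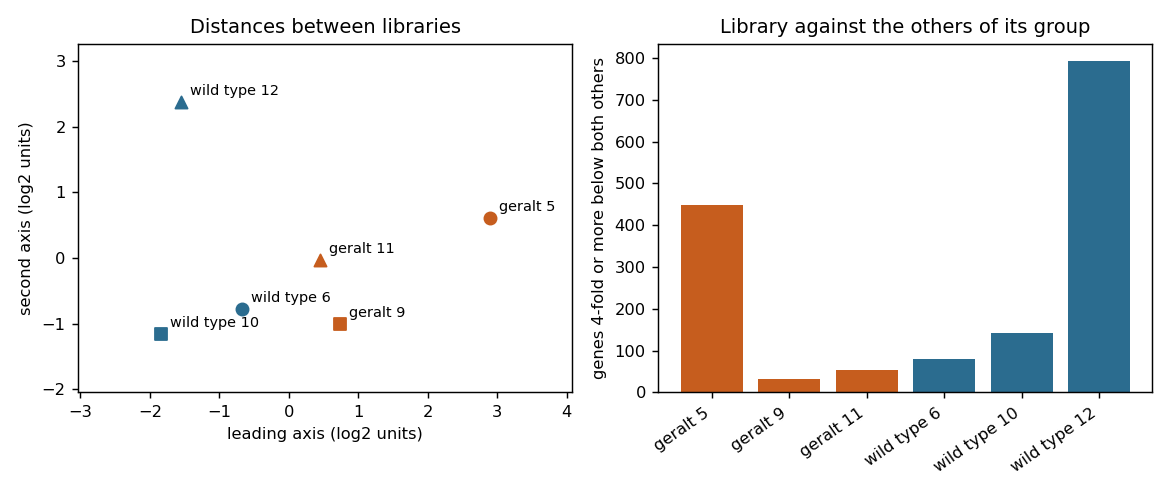
Left, positions of the 6 libraries on the first axes of a scaling plot of the 500 genes that differ most between pairs of libraries (log2 units). Right, the number of genes at least 4-fold below both other libraries of the group, at 449 for geralt library 5 and 794 for wild-type library 12.

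The number of genes past the threshold depended on which libraries were in the fit. When the 5-day libraries shared the fit, 92 genes were higher (0.436% of 21122 tested) and 77 lower (0.365%) in geralt at 12 days. Of these 169, 156 had an adjusted p of 0.03 or more, and in all of them the genotypes did not overlap at 12 days. The count fell to 7 of 21359 genes without library 5, to 13 without library 12 and to 8 without both. DESeq2 on the 6 libraries called 257 higher and 275 lower, and the authors' deposited table lists 251 higher and 317 lower at an FDR under 0.05, with all 7 genes above among them. The genes described next did not pass the 6-library test unless said, and where a gene passed with all 12 libraries the adjusted p of that fit is given too. A plain description is whether the 3 geralt values lie beyond the 3 wild-type values. Of all genes tested 9.8% did so with geralt higher and 9.52% with geralt lower.

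Among 12 genes of alternative respiration and mitochondrial signalling, 10 had enough reads, 5 were higher in geralt without overlap and none lower. Of the 10, 6 had a log2 fold change above 0 and 4 below 0. The list's median log2 fold change was 0.89, against -0.03 over all genes tested, and 0.57 without libraries 5 and 12. UPOX, a mitochondrial protein used as a marker of oxidative stress, had 98.1, 35.5 and 34.8 CPM in geralt and 5.54, 9.02 and 2.57 CPM in wild type (log2 fold change 3.3, SE 0.60, adjusted p = 0.178; 0.0438 with 12 libraries). NAC013 itself had 20.9, 8.47 and 8.37 CPM in geralt and 2.97, 3.39 and 3.41 CPM in wild type (log2 fold change 1.95, SE 0.41, adjusted p = 0.208; 0.045 with 12 libraries). Every geralt value exceeded every wild-type value in both genes, and library 5 was the highest. AOX1C, an alternative oxidase that lets electrons bypass part of the respiratory chain, had 1.66, 0.979 and 1.5 CPM in geralt and 0.0686, 0.0988 and 0.191 CPM in wild type (log2 fold change 3.47, SE 0.61, adjusted p = 0.177), and AOX1A had 38.2, 28.1 and 30.4 CPM in geralt and 14.8, 19.7 and 20.3 CPM in wild type (log2 fold change 0.82, SE 0.24, adjusted p = 0.334). The membrane-tethered factor NAC017, known to be released after translation, overlapped between the genotypes (log2 fold change -0.22).

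Genes outside the lists with the same shape were chosen after their values were seen, from those that passed with all 12 libraries. AT2G18193, a nucleoside triphosphatase with the motif in its promoter shown above, had 96.3, 15.1 and 15.5 CPM in geralt and 3.84, 1.58 and 0.685 CPM in wild type (log2 fold change 4.38, SE 0.96, adjusted p = 0.225; 0.0498 with 12 libraries). NAC044, a factor known from the DNA damage response, had 79, 22.7 and 19.1 CPM in geralt and 3.96, 1.93 and 1.11 CPM in wild type (log2 fold change 4.11, SE 0.72, adjusted p = 0.177; 0.0348 with 12 libraries), and NAC103 had 24.9, 7.34 and 7.05 CPM in geralt and 1.53, 1.19 and 1.04 CPM in wild type (log2 fold change 3.39, SE 0.56, adjusted p = 0.162; 0.0379 with 12 libraries). Library 5 was more than 3 times as high as either other geralt library in these genes, and libraries 9 and 11 also exceeded all of wild type. DTX3, an efflux carrier, had 70.2, 20.8 and 21.7 CPM in geralt and 2.02, 3.66 and 5.51 CPM in wild type (log2 fold change 3.33, SE 0.60, adjusted p = 0.178; 0.0449 with 12 libraries), and UGT74E2, a glucosyltransferase, had 37.5, 8.11 and 21 CPM in geralt and 4.25, 2.37 and 3.59 CPM in wild type (log2 fold change 2.7, SE 0.54, adjusted p = 0.205; 0.0352 with 12 libraries). ACC2, a plastid acetyl-CoA carboxylase of fatty acid synthesis, had 165, 77.3 and 49.1 CPM in geralt and 10.2, 9.59 and 13.1 CPM in wild type (log2 fold change 3.14, SE 0.46, adjusted p = 0.121; 0.0438 with 12 libraries). CRF6, a cytokinin response factor, had 23.6, 17.4 and 18.1 CPM in geralt and 5.26, 6.5 and 3.73 CPM in wild type (log2 fold change 1.94, SE 0.29, adjusted p = 0.127; 0.0193 with 12 libraries), with little spread in geralt. The homeodomain gene HDG4 was nearly silent in wild type, at 2.6, 1.91 and 2.1 CPM in geralt and 0.0514, 0 and 0.0337 CPM in wild type (log2 fold change 6.06, SE 0.73, adjusted p = 0.0798; 0.0427 with 12 libraries).

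**Figure D3:**
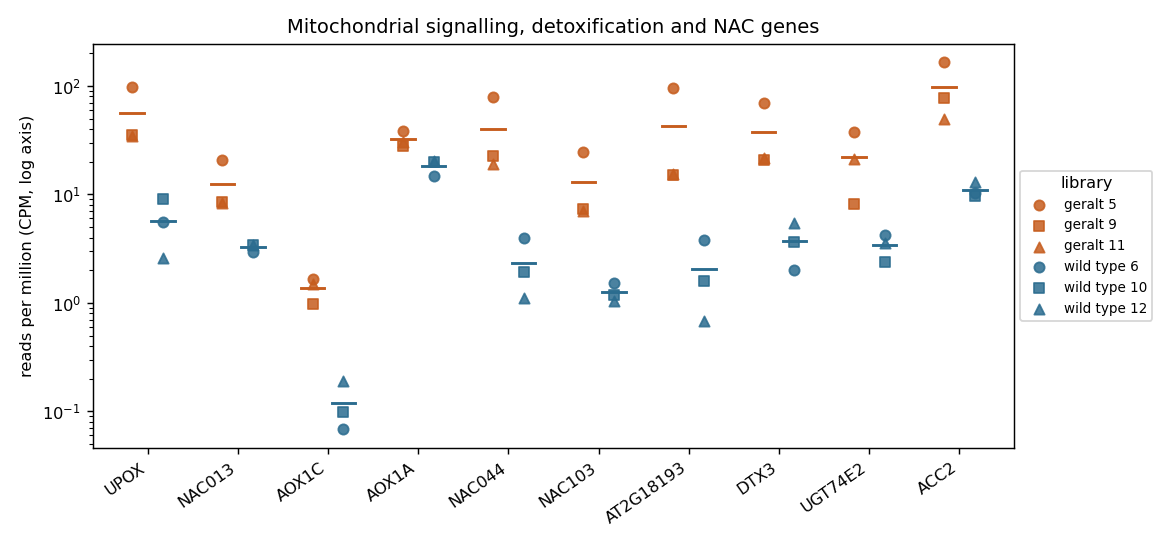
CPM (log axis) of 10 genes of mitochondrial signalling, detoxification and the NAC family, in the 3 geralt libraries (orange, left) and the 3 wild-type libraries (blue, right), with a bar at each mean. The genotypes do not overlap in any of the 10, and geralt library 5 (circle) is the highest in all 10.

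The cell cycle and DNA damage list was split. Its median log2 fold change was close to that of all genes, and 12 of 15 tested members overlapped between the genotypes. The other 3 were higher in geralt. GMI1, a gene of the DNA damage response, had 33.5, 14.5 and 12.3 CPM in geralt and 3.98, 4.5 and 4.53 CPM in wild type (log2 fold change 2.21, SE 0.41, adjusted p = 0.183; 0.0403 with 12 libraries). SMR7, a cell cycle inhibitor, had 2.12, 1.19 and 1.11 CPM in geralt and 0.36, 0.173 and 0.213 CPM in wild type (log2 fold change 2.55, SE 0.55, adjusted p = 0.22), and BRCA1, of homologous recombination, had 10.2, 4.21 and 3.9 CPM in geralt and 3.19, 1.38 and 2.61 CPM in wild type (log2 fold change 1.35, SE 0.50, adjusted p = 0.394). SOG1, the factor that controls this response, overlapped (log2 fold change -0.32).

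Heat shock proteins and their regulators had a median of 1.16 (log2 fold change), with 8 of 17 tested members higher without overlap and none lower. HSP70 had 154, 140.3 and 173 CPM in geralt and 51.9, 43.2 and 55.3 CPM in wild type (log2 fold change 1.64, SE 0.24, adjusted p = 0.113), and HSP90.1 had 11.4, 10.6 and 13.6 CPM in geralt and 3.1, 2.54 and 5.0 CPM in wild type (log2 fold change 1.74, SE 0.33, adjusted p = 0.183). Both are cytosolic chaperones, and their geralt values lay close together and above all of wild type. AT4G25200, a small heat shock protein of mitochondria, had 0.897, 0.447 and 0.60 CPM in geralt and 0, 0 and 0.0112 CPM in wild type. ROF2, a co-chaperone of the heat response, had 16.5, 9.76 and 12.2 CPM in geralt and 4.8, 3.26 and 4.31 CPM in wild type (log2 fold change 1.63, SE 0.30, adjusted p = 0.183; 0.0403 with 12 libraries). The endoplasmic reticulum chaperones BIP2 and BIP3 overlapped, at 0.47 and -0.47.

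Mitochondrial genes took a larger share of reads in geralt, at 0.193%, 0.220% and 0.108% of gene reads, against 0.0754%, 0.0697% and 0.0140% in wild type (exact permutation p = 0.1). Of 65 mitochondrial genes tested, 25 were higher without overlap and 0 lower. Their median log2 fold change was 1.21, and 0.75 without wild-type library 12. None passed, with 6 or with 12 libraries. Selection of polyadenylated RNA takes up only part of the transcripts of both organelles, so these values compare the captured part.

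Plastid genes were listed by role. Of 22 tested genes for the plastid's own gene expression and housekeeping, 16 were higher in geralt without overlap and 0 lower. The median log2 fold change was 2.16, and 5 passed with all 12 libraries. RPOB, a subunit of the plastid-encoded RNA polymerase, had 78.2, 128 and 95.1 CPM in geralt and 23.7, 25.4 and 17.8 CPM in wild type (log2 fold change 2.17, SE 0.28, adjusted p = 0.0846; 0.0352 with 12 libraries), and RPOC1 had 66.3, 94.9 and 76.5 CPM in geralt and 20, 18.9 and 14.3 CPM in wild type (log2 fold change 2.16, SE 0.26, adjusted p = 0.0786; 0.0449 with 12 libraries). CLPP1, the plastid-encoded Clp protease subunit, had 44.8, 81.9 and 72.3 CPM in geralt and 14.3, 16.8 and 8.33 CPM in wild type (log2 fold change 2.34, SE 0.36, adjusted p = 0.135; 0.0198 with 12 libraries). Wild-type library 12 was the lowest for each, but libraries 6 and 10 were also below all of geralt, and without library 12 the list's median was 1.71. Genes of the NDH complex, which cycles electrons around photosystem I, had a median of 1.01 with 5 of 12 higher without overlap, and 0.55 without library 12. The 12 hold the gene NDHB as both NDHB.1 and NDHB.2, so they are not all separate genes. NDHH had 4.31, 7.13 and 5.1 CPM in geralt and 1.95, 1.51 and 0.101 CPM in wild type (log2 fold change 2.23, SE 0.85, adjusted p = 0.404).

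Plastid-encoded photosynthesis genes ran the other way, with a median of -0.85 and 15 of 23 below 0. Of the 23, 2 were lower and 1 higher without overlap, which is not above the shares of all genes tested (9.52% and 9.8%). Library 5 of geralt and library 12 of wild type were both low (list medians per library, as log2 CPM relative to the average of the gene, -1.18, 0.57 and 0.25 in geralt and 1.02, 1.08 and -1.32 in wild type). ATPB, of the plastid ATP synthase, was lower in each geralt library, at 147, 189 and 169.5 CPM in geralt and 388, 515 and 376 CPM in wild type (log2 fold change -1.34, SE 0.28, adjusted p = 0.208; 0.0448 with 12 libraries). YCF3, an assembly factor of photosystem I, had 19.3, 16 and 21.5 CPM in geralt and 10, 5.93 and 1.12 CPM in wild type (log2 fold change 1.74, SE 0.65, adjusted p = 0.398). Of the nuclear genes for plastid transcription, PTAC12 had 27.2, 19.9 and 31.6 CPM in geralt and 17.7, 12.3 and 14.2 CPM in wild type and SIG2, a sigma factor, had 48.6, 66.3 and 85.2 CPM in geralt and 101, 105 and 108 CPM in wild type, in opposite directions and each without overlap.

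**Figure D4:**
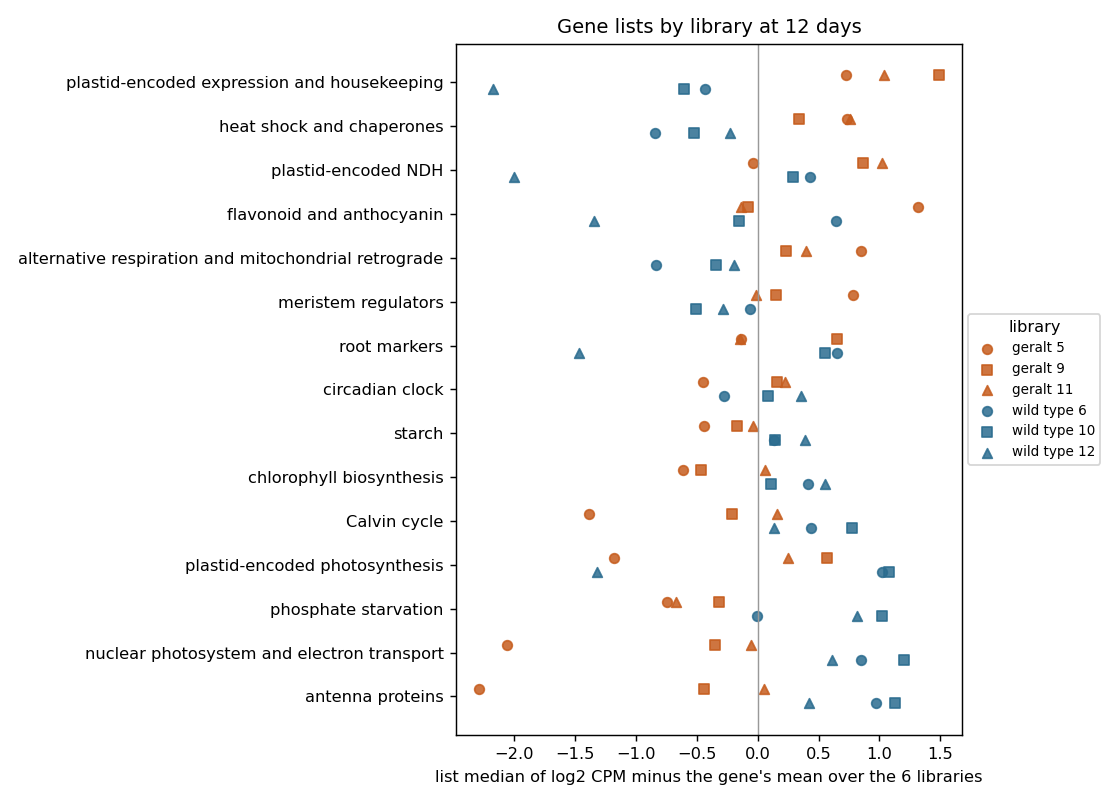
Median over each gene list of log2 CPM, less the average of the gene over all 6, per library, for geralt (orange, above) and wild type (blue, below). Plastid-encoded expression genes lie at 0.73 to 1.49 in geralt and -2.17 to -0.43 in wild type, while antenna genes lie at -2.29 to 0.05 in geralt and 0.42 to 1.13 in wild type.

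Nuclear photosynthesis genes were lower as a group without a member that passed. All 32 genes of the photosystems and electron transport had a log2 fold change below 0, with a median of -1.49, and in 26 the genotypes did not overlap. Antenna genes had a median of -1.55, with 20 of 21 below 0 and 16 lower without overlap. Without library 5 the medians were -1.16 and -1.15. PSAD1, of photosystem I, had 391, 1281 and 1401 CPM in geralt and 4009, 7102 and 3158 CPM in wild type (log2 fold change -2.22, SE 0.60, adjusted p = 0.315). PSBW, of photosystem II, had 327, 421 and 823 CPM in geralt and 1452, 1242 and 1717 CPM in wild type (log2 fold change -1.49, SE 0.43, adjusted p = 0.334). LHCB5, a minor antenna protein, had 958, 2309 and 3462 CPM in geralt and 5728, 7341 and 7151 CPM in wild type (log2 fold change -1.59, SE 0.55, adjusted p = 0.376). Library 5 was the lowest in each, and libraries 9 and 11 were also below all of wild type.

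Chlorophyll synthesis genes had a median of -0.69, with 14 of 25 lower without overlap. PORB, which reduces protochlorophyllide in light, had 38.8, 129 and 201 CPM in geralt and 589, 585 and 1004 CPM in wild type (log2 fold change -2.56, SE 0.59, adjusted p = 0.244), and CAO, which makes chlorophyll b, had 50.7, 130.4 and 203 CPM in geralt and 383, 371 and 483 CPM in wild type (log2 fold change -1.69, SE 0.48, adjusted p = 0.329). PORA, the form of etiolated seedlings, was near 0 in geralt, at 0, 0.0851 and 0.113 CPM in geralt and 1.54, 2.08 and 3.86 CPM in wild type (log2 fold change -5.23, SE 0.92, adjusted p = 0.177; 0.0464 with 12 libraries). GLK1, a factor that drives chlorophyll and antenna genes, had 21.4, 35.8 and 38.5 CPM in geralt and 196, 266 and 162 CPM in wild type (log2 fold change -2.7, SE 0.34, adjusted p = 0.0798; 0.0305 with 12 libraries). HYH, a light-signalling factor, was higher, at 13.8, 9.68 and 9.21 CPM in geralt and 4.83, 3.81 and 2.01 CPM in wild type (log2 fold change 1.62, SE 0.38, adjusted p = 0.255).

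Calvin cycle genes had a median of -0.80, which moved to -0.44 without library 5, and 7 of 19 were lower without overlap. RBCS2B, a small subunit of Rubisco, had 39.7, 599.6 and 779 CPM in geralt and 11178, 12658 and 5947 CPM in wild type (log2 fold change -4.39, SE 1.04, adjusted p = 0.26; 0.0449 with 12 libraries). Library 5 was over 10 times below the other geralt libraries. In the photorespiratory cycle the median was -0.73, and -0.42 without library 5. PLGG1, the plastid transporter of glycolate and glycerate, had 53.5, 111 and 202 CPM in geralt and 276, 273 and 353 CPM in wild type (log2 fold change -1.3, SE 0.46, adjusted p = 0.378). All 19 starch genes had log2 fold changes below 0, with a median of -0.42 and 8 lower without overlap. APL1, a subunit of the enzyme that makes ADP-glucose, had 92.5, 100.2 and 161 CPM in geralt and 240.2, 230.4 and 207 CPM in wild type (log2 fold change -0.94, SE 0.29, adjusted p = 0.355).

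In the isoprenoid and carotenoid list, with a median of -0.59 (-0.29 without library 5 and -0.33 without library 12), 6 of 19 were lower without overlap and 3 passed with all 12 libraries. DXS, which opens the plastid isoprenoid pathway, had 40.4, 76 and 88.7 CPM in geralt and 164, 212 and 243 CPM in wild type (log2 fold change -1.59, SE 0.35, adjusted p = 0.22; 0.0352 with 12 libraries), and PSY, phytoene synthase, had 20.4, 34.8 and 43.9 CPM in geralt and 78.4, 76.9 and 104 CPM in wild type (log2 fold change -1.39, SE 0.32, adjusted p = 0.244; 0.045 with 12 libraries). NCED3, which cleaves carotenoids on the way to abscisic acid, had 0.793, 1.72 and 3.56 CPM in geralt and 22.8, 12 and 10.5 CPM in wild type (log2 fold change -2.9, SE 0.58, adjusted p = 0.205; 0.0461 with 12 libraries).

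The phosphate starvation list had a median of -1.25 (log2 fold change), with 10 of 27 lower without overlap and 6 that passed with all 12 libraries. MGD2 and MGD3 make galactolipid that replaces phospholipid when phosphate is short. MGD2 had 1.14, 1.6 and 1.26 CPM in geralt and 4.05, 8.43 and 9.31 CPM in wild type (log2 fold change -2.45, SE 0.41, adjusted p = 0.162; 0.0293 with 12 libraries), and MGD3 had 0.948, 2.23 and 0.675 CPM in geralt and 5.09, 25.1 and 24.4 CPM in wild type (log2 fold change -3.83, SE 0.72, adjusted p = 0.183; 0.0403 with 12 libraries). PS2, a pyrophosphatase, had 1.12, 1.28 and 0.581 CPM in geralt and 2.26, 41.8 and 27.9 CPM in wild type (log2 fold change -4.59, SE 0.96, adjusted p = 0.208; 0.0352 with 12 libraries). Wild-type library 6 lay below libraries 10 and 12 in these 3 genes while staying above geralt. The transporter PHT1;4 varied little within geralt, at 30, 29.3 and 31.9 CPM in geralt and 47.7, 90 and 81.2 CPM in wild type (log2 fold change -1.26, SE 0.28, adjusted p = 0.229; 0.0449 with 12 libraries). PHT1;2 had 0, 0.34 and 0.30 CPM in geralt and 1.25, 76.8 and 5.32 CPM in wild type (log2 fold change -7.04, SE 1.77, edgeR adjusted p = 0.281, and 0.0461 with 12 libraries). Of its reads 69.4% were unique, so its count is uncertain. PAP14, a purple acid phosphatase outside the list that was picked after its values were seen, had 0, 0.106 and 0.113 CPM in geralt and 0.977, 23.1 and 15.7 CPM in wild type (log2 fold change -7.5, SE 1.36, adjusted p = 0.181; 0.0352 with 12 libraries).

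The letters GNATATNC, searched on both strands, lay in the window around the start of 13 of 28 phosphate list genes (46.4%), against 1257 of all 20307 tested chromosome genes (6.19%). In the part before the start they lay in 7 of 28 (25%) and in 5.42% of all. The list holds known targets of PHR1, so this share was in part given. The 150 bases before the start of both genes named last are shown, with the matching letters in capitals.
PHT1;2 (chr5:17415548-17415697, plus strand): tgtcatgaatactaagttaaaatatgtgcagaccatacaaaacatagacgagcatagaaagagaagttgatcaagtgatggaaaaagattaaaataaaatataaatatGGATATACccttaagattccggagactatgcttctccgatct
PAP14 (chr2:19266457-19266606, minus strand): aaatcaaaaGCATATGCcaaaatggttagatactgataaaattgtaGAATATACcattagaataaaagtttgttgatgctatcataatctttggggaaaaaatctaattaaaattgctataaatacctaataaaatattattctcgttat
The evening element AAATATCT lay in 6 of 17 clock gene windows (35.3%) and in 5.89% of all tested, and the G-box CACGTG in 12 of 32 windows of nuclear photosystem genes (37.5%) and in 8.62% of all tested. Before the start alone, the evening element lay in 5 of 17 (29.4%) and in 4.94% of all, and the G-box in 6 of 32 (18.8%) and in 7.2% of all. These shares describe the sequences of the chosen lists and not a difference between the genotypes. Over the clock genes, log2 fold changes had a median of -0.18, and none of the 17 stood apart between the genotypes; without libraries 5 and 12 the median was 0.11.

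**Figure D5:**
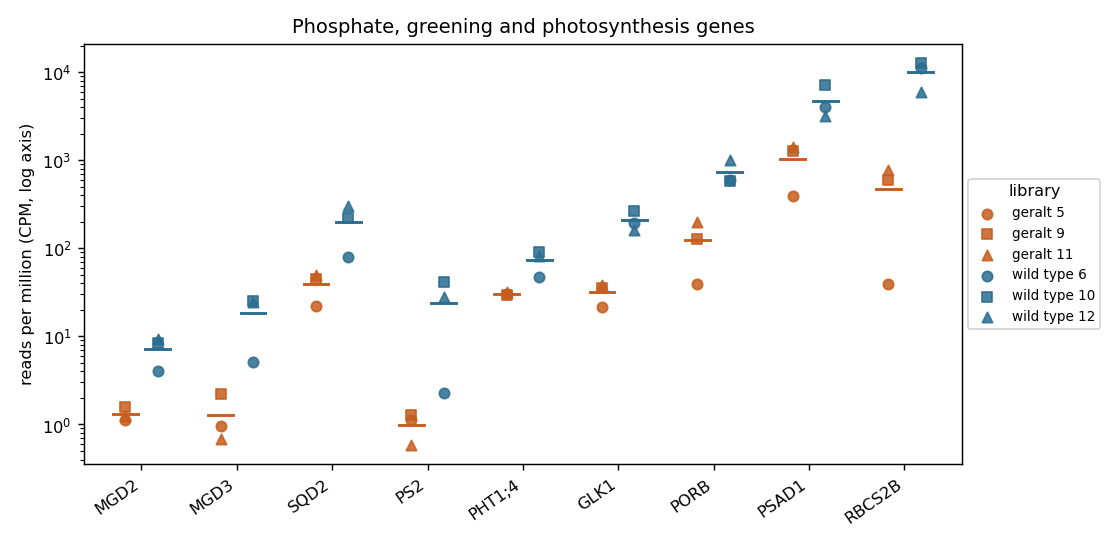
CPM (log axis) of 5 phosphate starvation genes and 4 greening and photosynthesis genes, in the 3 geralt libraries (orange, left) and the 3 wild-type libraries (blue, right), with a bar at each mean. All geralt values lie below all wild-type values of the same gene, and wild-type library 6 (blue circle) is the lowest of wild type in the 5 phosphate genes.

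NRT2.1, a root nitrate transporter, had 4.71, 10.8 and 1.99 CPM in geralt and 6.96, 323 and 66.9 CPM in wild type, which overlap. FRO2, the root iron reductase, had 1.78, 4.38 and 3.7 CPM in geralt and 74.3, 33.5 and 5.59 CPM in wild type (log2 fold change -3.53, SE 0.85, adjusted p = 0.265), and IRT1, the iron transporter, had 0.138, 0.511 and 4.52 CPM in geralt and 97.4, 34.1 and 3.96 CPM in wild type, also with overlap. NRT2.3, another nitrate transporter, picked after its values were seen, had 1.5, 1.11 and 1.37 CPM in geralt and 11.1, 7.91 and 20 CPM in wild type (log2 fold change -3.29, SE 0.41, adjusted p = 0.0798; 0.0193 with 12 libraries). Root markers had list medians per library of -0.14, 0.65 and -0.15 in geralt and 0.65, 0.56 and -1.47 in wild type. None of the 12 stood apart between the genotypes, and their summed level was 171 to 329.5 CPM in geralt and 98.3 to 601 CPM in wild type, with wild-type library 12 the lowest. The median log2 fold change of the root markers was -0.08, and -0.50 without library 12. Their part in the nutrient genes was not tested, and in whole seedlings fewer cells of a type and less RNA per cell cannot be told apart.

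Of the shoot meristem regulators, 4 of 11 tested were higher without overlap and 1 lower, against 9.8% and 9.52% of all genes tested. The list's median log2 fold change was 0.68, and 0.32 without libraries 5 and 12. STM, which keeps stem cells undifferentiated, had 16.7, 17.1 and 17.8 CPM in geralt and 5.74, 6.28 and 7.17 CPM in wild type (log2 fold change 1.42, SE 0.22, adjusted p = 0.142; 0.0352 with 12 libraries), with hardly any spread within either group. Its relative KNAT2 had 1.05, 0.851 and 0.882 CPM in geralt and 0.189, 0.346 and 0.303 CPM in wild type. Another relative, KNAT6, had 6.29, 4.85 and 3.79 CPM in geralt and 3.74, 2.03 and 1.84 CPM in wild type, also without overlap. CLV1, a receptor that limits stem cell number, was lower, at 21.4, 35.5 and 46.8 CPM in geralt and 54.2, 58.8 and 96.9 CPM in wild type. The regulators WUS and CLV3 had too few reads for a test.

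Jasmonate genes had a median of -0.76 with 5 of 16 lower without overlap, among them AOC2, of jasmonate synthesis, at 11.1, 27.8 and 22.8 CPM in geralt and 53.3, 93.6 and 55.2 CPM in wild type (log2 fold change -1.71, SE 0.39, adjusted p = 0.242). Salicylic acid and defence genes, of which 3 of 13 were lower without overlap, had a median of -0.68, and -0.16 without libraries 5 and 12. WRKY70, a regulator of that pathway, had 2.41, 3.13 and 2.93 CPM in geralt and 5.16, 20.4 and 28.6 CPM in wild type (log2 fold change -2.68, SE 0.57, adjusted p = 0.208). Flavonoid and anthocyanin genes had a median of 0.91 that turned to -0.12 without library 5, which was the highest of the 6 libraries. CER1, of cuticular wax synthesis, was lower, at 27.2, 27.8 and 86 CPM in geralt and 203, 112 and 284 CPM in wild type (log2 fold change -2.09, SE 0.55, adjusted p = 0.302). The wax list as a whole had 8 of 12 tested members above 0 and a median of 0.12, or -0.06 without library 5.

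The remaining lists gave medians between -0.73 and 0.47 with at most 5 members apart in 1 direction. They were the greening regulators (-0.47), nuclear plastid transcription machinery (0.36), plastid ribosomal proteins (-0.35), plastid import and proteolysis (-0.07), iron homeostasis (-0.42), nitrate and sulfate assimilation (-0.27), aliphatic and indolic glucosinolates (-0.31 and -0.15), cuticular wax (0.12), the oxidative response (0.47), abscisic acid, cold and hypoxia (-0.73), cytokinin and auxin (-0.47), phase change (0.28), chlorophyll breakdown (-0.63) and the photolyase family (-0.11). Lower without overlap were 5 of 16 greening regulators and 4 of 12 cuticular wax genes, against 9.52% of all genes tested. Higher without overlap were 4 of 19 genes of the nuclear plastid transcription machinery, against 9.8% of all. In each of these lists 1 member stood apart the other way. In the photolyase family 2 of 6 members were lower in geralt without overlap, PHR2, which passed, and the blue-light receptor CRY1, which did not. CRY1 had 44.2, 64.6 and 75.7 CPM in geralt and 83.8, 110.1 and 109 CPM in wild type (log2 fold change -0.72, SE 0.27, adjusted p = 0.405). Their relatives CRY2 and UVR2 overlapped, at -0.48 and 0.8.

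The label of whole seedlings was checked with marker genes of leaf, root, flower and seed, and both leaf and root markers were present. Leaf antenna genes summed to 14886 to 81163 CPM in geralt and 117446 to 222370.0 CPM in wild type. Flower markers summed to 10.3 to 10.5 CPM in geralt and 5.11 to 7.26 CPM in wild type, of which SEP3 gave the most in every library. Of 14 genes of seed storage and embryo formation only 3 had enough reads for a test.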

How the data were processed

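RNA was measured in whole seedlings by sequencing of polyadenylated RNA (Lexogen libraries, paired reads, per the labels' protocols). The authors deposited for each library whole-number read counts per gene, in total and unique, with intron and exon-exon reads, and TPM values, per the file headers. The submitters' processing notes name TAIR10 as the build. For the aligner, the counter and the strand setting the sources used here give nothing, so reads of overlapping genes on opposite strands may not be told apart. The authors' deposited table also holds a log2 fold change and an FDR p-value per gene for the 12-day comparison, which was used for counts of genes only.

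Total gene reads of the 6 libraries at 12 days were tested with edgeR 4.0.16 (quasi-likelihood test, TMM scaling, filterByExpr, R 4.3.3), with Benjamini-Hochberg adjustment over all 20446 genes and a threshold of 0.05. No batch was given in the labels. CPM were computed here from total gene reads and TMM effective library sizes, which also scale the folds of summed reads. Alternatives used DESeq2 1.42.0, limma 3.58.1 voom weights, other filters and scalings, each library left out, and all 12 libraries in 1 fit. The median fold changes of the test were checked on simulated data in which no library stood apart, so the check does not cover such libraries. Depth was 43.1 to 91.6 M gene reads per library, of which 99.2% to 99.5% were unique, and precision was limited by the spread between libraries.

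Genes named are PHR2, the genes past the threshold, up to 4 members of each list with the smallest p, and usual markers of a list; others are said to be chosen after their values were seen. The comparison and the gene lists were chosen with earlier results of these data known. Promoter windows ran from 250 bases before to 50 bases after the RefSeq start in TAIR10.1. The mitochondrial dysfunction motif and the 12-library fits with libraries left out were added after the data were seen.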

Additional observations from a re-analysis of the deposited data

How the results depend on the processing

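The 6-library test gave 5 genes higher and 2 lower in geralt, with the same counts under other size factors, unique reads, chromosome genes alone and a robust prior. DESeq2 gave 257 higher and 275 lower, no filter on low counts 8 and 4, all 12 libraries 92 and 77, and voom with library weights 4 and 4, where AT4G29200 (adjusted p = 0.0509), AT5G53230 (0.0525) and AT1G17960 (0.07) no longer passed in limma. Leaving out 1 library gave 0 to 5 higher and 1 to 4 lower. Without libraries 5 and 12 together the counts were 6 and 2, of which 6 genes were among the 7 and PHR2 was not (edgeR adjusted p = 0.0546). The 12-library counts were 4 higher and 9 lower without library 12, 4 and 3 without library 5, 2 and 6 without both, 97 and 58 without wild-type library 4, and 37 and 34 without libraries 4 and 12. The difference between ages gave 0 genes, 2 without wild-type library 6 at 12 days (0 to 2 over all libraries left out) and 70 by DESeq2. The cause of these shifts was not tested.

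Of the named genes, 2 that did not pass changed sign: BIP3, at 0.013 without library 12 (lowest -1.35, without library 5), and SOG1, at 0.0038 without library 12 (lowest -0.49, without library 10). List medians that changed sign were those of the photolyase family (0.03 without library 12), plastid import (0.12 without 12), cuticular wax (-0.06 without 5), flavonoids (-0.12 without 5), the clock (0.11 without both), cell cycle (0.16 without 12), cytokinin and auxin (0.02 without 12) and seed genes (0.82 without 12). Medians that moved by over 1.5 times with the same sign included the plastid photosynthesis genes (-0.37 without 5) and starch (-0.21 without both). Others were meristem regulators (0.45 without 5, 0.32 without both) and the oxidative response (0.16 without 5, 0.01 without both). Greening regulators (-0.17 without both), chlorophyll breakdown (-0.40 without 12, -0.17 without both) and root markers (-0.50 without 12) moved too. So did nitrate and sulfate (-0.49 without 12), indolic glucosinolates (-0.31 without 12), aliphatic ones (-0.55 without both) and nuclear plastid transcription (0.55 without 12). No paired analysis was possible because each library number occurs in 1 group only.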

Other observations

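Among the 169 genes that passed with all 12 libraries, 8 pairs were next to each other on a chromosome, and in all 8 both genes had the same direction. They included AT5G53230 with AT5G53240, AT2G18190 with AT2G18193, and the efflux carriers DTX1 with DTX3. The pairs FH9 with AT5G48370 and AT5G60250 with AT5G60260 overlap on opposite strands, where counts without a known strand setting may share reads. AT1G24090 and AT1G24095 lie 31 bases apart on the same strand. The share of neighbours with the same direction among all genes was not computed. Of 24 tested genes whose product is named for DUF295, 9 were higher in geralt without overlap and 4 lower. Of all genes tested, 9.8% were higher and 9.52% lower in this way. The set was chosen after values were seen and holds the called genes AT5G53230 and AT5G53240, so its count is in part given.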
